A study of Mus musculus with 2 samples.

Results

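The genes that store, make and release fat in the adipocyte were examined for differences in DNA methylation between 2 kinds of adipose progenitor. The set held 43 mouse genes, chosen by function from the lipid pathways and not by a measured value. Earlier results of these data were known when it was chosen. All 43 were found among the 21887 protein-coding genes of the RefSeq table used here. A gene was given every differentially methylated region that overlapped its body or the 5 kb on either side, which assigned 60 of the 34139 regions in the authors' deposited list to these genes. Genomic DNA had been bisulfite-converted and sequenced from cultured C57BL/6 mouse cells, with CD137+ progenitors in 1 library and PDGFRα+ (CD140a+) progenitors in the other. Both groups were labelled adipose tissue and were treated with dexamethasone (DEX), a synthetic glucocorticoid. The cells had been purified with magnetic beads out of subcutaneous or visceral fat and kept in adipogenic medium, per the labels' protocols, and the depot behind each library is not given in the labels. The series title places the comparison in a question about glucocorticoids, methylation and visceral obesity.

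Fat cells keep triglyceride in a lipid droplet wrapped in perilipins and other coat proteins. Fatty acids reach the droplet from the blood, after lipoprotein lipase has freed them, or are made in the cell from acetyl-CoA, and are then joined to a glycerol backbone by a chain of acyltransferases and lipins. Lipolysis runs the other way, with adipose triglyceride lipase, hormone-sensitive lipase and monoacylglycerol lipase each removing a fatty acid in turn. Methylation of cytosine in CpG dinucleotides is one of the marks that differ between cell types at such genes, and glucocorticoids are known to act on both storage and lipolysis in fat.

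Each region carried a position and the authors' own signed score, without a header. The score is not a methylation level, and nothing in the list says which library was subtracted from which. The list's title names the PDGFRα+ sample first; were that the order of subtraction, a positive score would stand for more methylation in the PDGFRα+ library. Read coverage and levels per library are not used here, the depth is unknown, and 1 library per group leaves no replicates to measure a spread from. No p-value was therefore computed, and intervals on shares are 95% Wilson intervals that cover the counting of regions only. Several regions share a gene and are not independent. The list holds no expression values, so the labelled cell type could not be checked against its markers. Both libraries received dexamethasone, so its effect was not compared.

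Among the 43 genes, 23 had at least 1 region (53.5%), against 35.1% of all protein-coding genes. The regions were not tilted to the negative side as the whole list was. Of the 60 regions 32 had a positive and 28 a negative score, so that 46.7% were negative (34.6 to 59.1), against 67.4% of the whole list. At least 1 positive region stood at 17 members, against 16.9% of protein-coding genes, and at least 1 negative region at 15, against 27.8%. Only positive regions were found at 8 members (7.33% of protein-coding genes), only negative regions at 6 (18.2%) and both signs at 9 (9.57%). The genes with the most positive regions were Mgll, the lipase of the last step of lipolysis, with 7 of 8 positive, and Cavin1, which builds caveolae at the plasma membrane, with 4 of 4. Gpam, the enzyme of the first step of glycerolipid synthesis, had 4 of 4 negative. Without Mgll 51.9% of 52 regions were negative (38.7 to 64.9). Without Mgll, Cavin1 and Fabp4, 3 genes left out because of their positive regions, the share was 60.0% of 45 regions (45.5 to 73.0), an interval that holds the whole-list value.

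**Figure D1:**
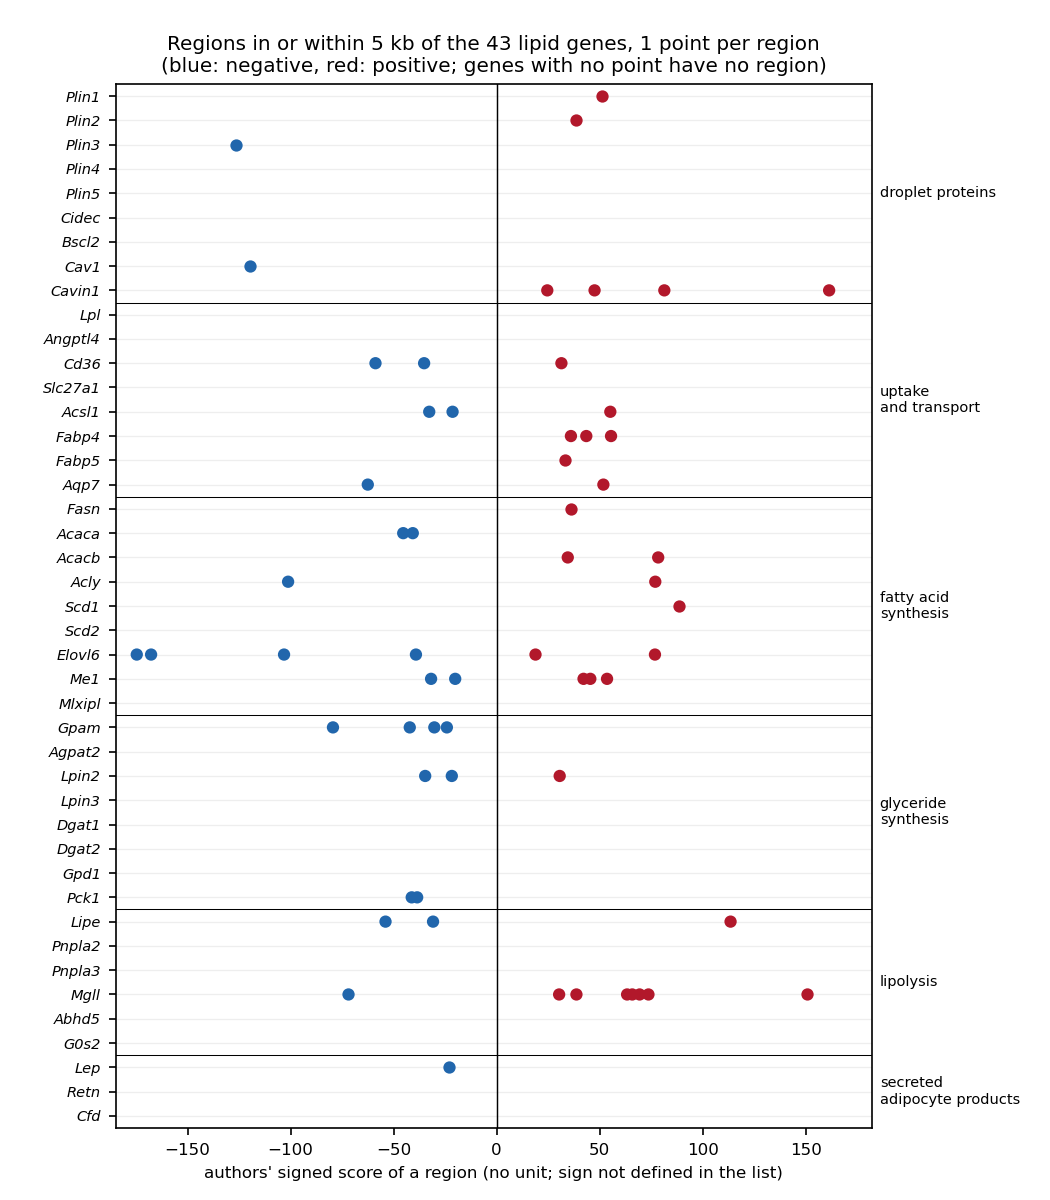
Each point is 1 region, placed by the authors' signed score (horizontal axis, no unit) on the line of its gene, with genes grouped by role and coloured by sign. The 23 genes with a point hold 60 regions, 32 to the right of 0, and the glyceride synthesis genes have 1 positive point among 9.

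Not every start of these genes could be examined. RefSeq start windows of GRCm38.p6, the assembly that mm10 names, were found for 34 of the 43 members, 52 windows in all, each 300 bases long. None of the 52 (0) overlapped a region, against 0.903% of the 21263 such windows of protein-coding genes. At that share few if any of 52 windows would overlap a region, so the 0 does not set these genes apart. The regions at Fabp4, Fabp5 and Scd1 had no start to be measured from. Cd36 had 1 window, so its region at the upstream end of the gene was measured from a start 52.97 kb away. Of the 55 regions at members with a start window, 43 lay more than 5 kb from the nearest start used. Another 5 lay within 2 kb, at Pck1 (2 regions), Cd36, Mgll and Lipe. The 250 bases before a start of these 4 genes are printed 5′ to 3′ to show how much CpG, the substrate of methylation, they hold. They lie outside the regions, with the nearest region 90 bp away at Pck1, 373 bp at Cd36, 1452 bp at Mgll and 1717 bp at Lipe. The Mgll region was measured from the second start of that gene, not from the start whose stretch is printed. Capitals mark CpG dinucleotides. The stretches are chr2:173152823-173153072 (plus strand) for Pck1, chr5:17835897-17836146 (minus strand) for Cd36, chr6:88724162-88724411 (plus strand) for the first of the 2 starts of Mgll, and chr7:25390113-25390362 (minus strand) for the start of Lipe nearest to its region.
Pck1: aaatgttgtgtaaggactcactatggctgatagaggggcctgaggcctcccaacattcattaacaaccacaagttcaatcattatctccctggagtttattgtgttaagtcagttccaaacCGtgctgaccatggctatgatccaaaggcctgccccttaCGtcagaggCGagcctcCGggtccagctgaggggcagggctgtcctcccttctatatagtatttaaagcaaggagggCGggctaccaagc
Cd36: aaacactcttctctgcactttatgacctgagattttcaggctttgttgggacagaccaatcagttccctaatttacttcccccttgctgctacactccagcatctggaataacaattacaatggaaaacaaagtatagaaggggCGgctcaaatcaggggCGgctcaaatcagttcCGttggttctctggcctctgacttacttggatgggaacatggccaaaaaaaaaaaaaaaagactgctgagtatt
Mgll: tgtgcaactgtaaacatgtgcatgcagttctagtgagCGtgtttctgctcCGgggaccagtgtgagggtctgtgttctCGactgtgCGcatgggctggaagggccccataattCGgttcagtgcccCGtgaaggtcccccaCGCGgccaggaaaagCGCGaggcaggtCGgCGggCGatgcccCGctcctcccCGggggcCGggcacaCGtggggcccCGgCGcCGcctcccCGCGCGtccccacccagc
Lipe: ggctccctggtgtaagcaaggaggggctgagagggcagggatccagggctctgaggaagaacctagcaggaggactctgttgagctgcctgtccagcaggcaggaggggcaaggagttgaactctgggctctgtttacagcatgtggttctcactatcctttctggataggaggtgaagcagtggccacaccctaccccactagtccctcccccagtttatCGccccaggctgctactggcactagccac

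These stretches differed widely in CpG. The Mgll stretch held 23 CpG dinucleotides, more than 82.7% of protein-coding start windows, and the one before its second start held 40. The Pck1 stretch held 5, the Cd36 stretch 3 and the Lipe stretch 1. Over all 52 windows of members the median was 10 CpG in the 250 bases (quartiles 3.75 and 16), and over all protein-coding windows it was also 10 (3 and 19). The letters GGAATG, the core of the sites that TEAD factors bind, stood on either strand in 9 of the 52 windows (17.3%), belonging to 8 members, against 11.7% of all protein-coding windows. The 2 windows of Cavin1 overlap almost fully, so its match was counted in both. The difference between the shares was not tested. A match of letters is a description and not a binding site.

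Of the 5 regions within 2 kb of a start used here, those at Pck1 and Cd36 had absolute scores under 50. Those at Mgll and Lipe scored 65.9 and 114. Pck1, whose product makes glycerol backbone from lactate and amino acids in fat, had a negative region on each side of its start. The first (chr2:173152634-173152733, 100 bp, score -41.2) ended 0.34 kb upstream of the gene and 90 bp before the printed stretch, and the second (chr2:173153448-173153535, 88 bp, score -38.6) lay inside the gene, 0.42 kb past the start. Within 50 kb of Pck1 there were 7 regions, all negative. Cd36, a fatty acid transporter, had a positive region of 72 bp (chr5:17836519-17836590, score 31.5) 0.66 kb before the start used here, inside a longer form of the gene. Its other regions were negative, one of 51 bp inside the gene (score -58.8) and one of 118 bp at the far upstream end (chr5:17888812-17888929, score -35.2).

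Lipolysis genes had 11 regions, all at 2 of the 6 members (33.3%, against 35.1% of protein-coding genes). Of the 11, 3 were negative (27.3%, or 50% with 50 kb on both sides). Mgll (chr6:88724412-88828360, 103.9 kb) held 8 regions spread over its length. The strongest, of 212 bp at chr6:88776695-88776906, scored 151 and lay 52.1 kb past the nearest start. The region nearest to a start (chr6:88725863-88726011) scored 65.9 and lay 1.23 kb past it, inside the noncoding gene Gm26588 as well, which also overlaps the region of score 63.4. The other positive regions scored 73.7, 69.4, 38.8 and 30.4, and the single negative one (chr6:88745106-88745294, 189 bp) scored -71.9. Protein-coding genes of 80% to 125% of its length, 1267 in all, had a median of 2 regions, and 2.21% of them had 8 or more.

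Lipe, which encodes hormone-sensitive lipase, had 1 positive and 2 negative regions in a gene of 19.0 kb. The positive region (chr7:25388135-25388396, 262 bp) scored 114 and lay 1.85 kb past the nearest start. A negative region further on (chr7:25385884-25385984, 101 bp) scored -53.9 and had the higher score per bp, so the sign of the leading region at Lipe turns with that choice. Both also overlap the noncoding gene 4732471J01Rik. The third region lay 4.16 kb downstream of the gene and scored -30.9. Among 2697 genes of like length 2.34% had 3 or more regions. Pnpla2 (adipose triglyceride lipase), its coactivator Abhd5, its inhibitor G0s2 and the related Pnpla3 had none within 5 kb. A positive region of 277 bp and score 105 stood 5.40 kb from Pnpla2, just past the 5 kb limit and nearest to Cracr2b. G0s2 had its nearest region 12.44 kb away (score -139), nearest to Hsd11b1.

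**Figure D2:**
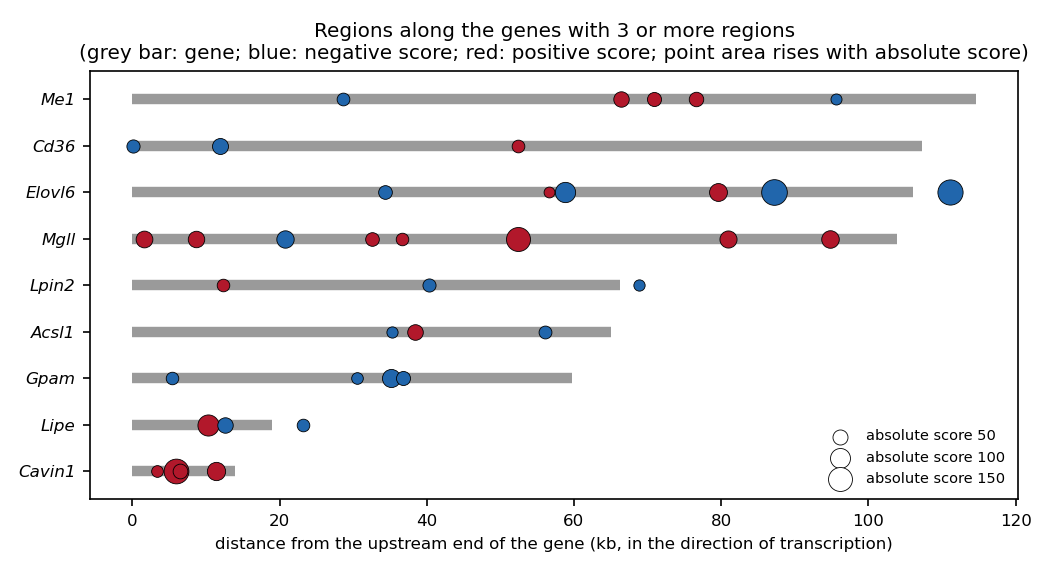
The 9 genes with 3 or more regions and a known strand are drawn as grey bars from their upstream end (kb, in the direction of transcription), with 1 point per region coloured by sign and sized by absolute score. Positive regions run along Mgll and Cavin1, negative ones along Gpam, and the strongest negative regions of Elovl6 lie towards and past its downstream end.

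Droplet and caveola genes had regions at 5 of 9 members (55.6%, against 35.1% of protein-coding genes), and 6 of the 8 regions were positive. The negative share of 25% became 41.2% with 50 kb on both sides. Cavin1 (chr11:100956736-100970617, 13.9 kb) held 4 positive regions. The widest of all 60, 481 bp at chr11:100964390-100964870, scored 161 and lay 5.99 kb past the nearest start. The others scored 81.4 (90 bp), 47.6 (100 bp) and 24.6 (57 bp), and the 90 bp region led when scores were taken per bp. Among 2519 genes of like length the median was 0 regions, and 0.992% had 4 or more. Cav1, which encodes the caveolin that cavins assemble with, had 1 negative region of 416 bp (chr6:17327043-17327458, score -120), and all 4 regions within 50 kb of it were negative.

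The perilipin coat genes differed in sign, with 1 region each at Plin1, Plin2 and Plin3. Plin1, the main coat of the adipocyte droplet, had a positive region of 100 bp (chr7:79734843-79734942, score 51.4) 1.94 kb upstream of the gene, and this region lay nearer to Pex11a. Plin2, the coat found in most cell types, had a positive region of 84 bp inside the gene (score 38.3), and all 4 regions within 50 kb of it were positive. Plin3 had a negative region of 203 bp inside the gene (chr17:56279770-56279972, score -126) that also lay within 5 kb of Ticam1. Plin4 and Plin5, which stand side by side on chromosome 17, had no region within 50 kb. Cidec, a droplet fusion factor, and Bscl2, which encodes the droplet assembly protein seipin, had none within 5 kb, the nearest being 34.1 kb (score 85.9) and 47.88 kb (score -21.4) away.

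Uptake and transport genes had regions at 5 of 8 members (62.5%, against 35.1% of protein-coding genes). Of the 12 regions in all 7 were positive, and none (0) reached an absolute score of 100. Fabp4, the fatty acid chaperone of the adipocyte, had 3 positive regions in and beside a gene of only 4.3 kb (chr3:10204342-10208616). They scored 55.6 (82 bp, 1.51 kb outside the lower end), 43.5 (99 bp, inside) and 36.1 (92 bp, inside). Among 1498 genes of like length the median was 0, and 1.34% had 3 or more. Within 50 kb Fabp4 had 8 regions, 7 of them positive, the next of which (score 40.1) stood 5.06 kb away. Fabp5, its close relative on the same chromosome, had 1 positive region of 63 bp (score 33.3).

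Acsl1, which activates fatty acids to acyl-CoA, had a positive region of 98 bp (score 55.2) between 2 negative ones (-21.4 and -32.7). Aqp7, the channel through which glycerol leaves the fat cell, had a negative region of 61 bp inside the gene (chr4:41043013-41043073, score -62.5) and a positive one 0.61 kb downstream (score 51.8). Of the 7 regions within 50 kb of Aqp7 5 were negative. Lpl, which frees fatty acids from lipoproteins, Angptl4, its inhibitor, and Slc27a1, a fatty acid transporter, had none within 5 kb, with the nearest 23.16, 19.31 and 56.95 kb away. The last of these (157 bp, score -214) was nearest to Plvap.

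Fatty acid synthesis genes had regions at 7 of 9 members (77.8%, against 35.1% of protein-coding genes), 19 in all, 10 of them positive. These genes ran from 13.2 kb (Scd2) to 272 kb (Acaca) in length. Acaca, Acacb, Elovl6 and Me1 were longer than 100 kb, and 86.2% of protein-coding genes of 100 kb or more had a region. The windows of the 9 genes held 22.8 regions per Mb, against 30.3 over all members and 16.3 over all protein-coding genes. Elovl6, which lengthens palmitate to stearate, had 6 regions, 4 of them negative. The strongest score of the 60 was there, -175 over 357 bp (chr3:129619333-129619689), followed by -168 over 290 bp just past the downstream end of the gene (chr3:129643315-129643604, 4.82 kb outside) and -103 over 187 bp (chr3:129591099-129591285). Between them lay a positive region of 359 bp and score 76.9 (chr3:129611822-129612180), and the other two scored 18.9 and -39.2. Of the 9 regions that reached 100 in absolute score, Elovl6 held 3. Among 1241 genes of like length 7.57% had 6 or more.

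Acly, which makes cytosolic acetyl-CoA from citrate, had 1 region of each sign inside the gene. The positive one (chr11:100524958-100525227, 270 bp) scored 77.0 at 2.91 kb past the start, and the negative one (chr11:100520909-100521060, 152 bp) scored -101 at 7.02 kb. The acetyl-CoA carboxylase genes, which make malonyl-CoA, differed in sign. Acaca, the cytosolic form used for synthesis, had 2 negative regions (scores -45.3 and -40.7) in 272 kb, and Acacb, the mitochondrial form that restrains fatty acid oxidation, had 2 positive ones (78.5 over 170 bp at chr5:114189276-114189445, and 34.55).

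Scd1, the main desaturase of fat and liver, had a positive region of 317 bp inside the gene (chr19:44406744-44407060, score 88.5). Its neighbour Scd2 had none within 5 kb, but a negative region (score -51.8) stood 5.06 kb away and 5 of the 6 regions within 50 kb were negative. Me1, which encodes an NADPH-producing malic enzyme, had 5 regions. The positive ones scored 53.6, 45.5 and 42.2 and were separate regions of 117 to 125 bp with no negative region between them (chr9:86619322-86629653), and the negative ones, at either side, scored -31.8 and -20.1. Fasn, which encodes fatty acid synthase, had 1 positive region of 56 bp (score 35.9), and Mlxipl, the carbohydrate-sensing activator of these genes, had its nearest region 12.83 kb away (score -29.2).

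Glyceride synthesis genes had regions at 3 of 8 members (37.5%, against 35.1% of protein-coding genes). Of the 9 regions 8 were negative (88.9%, 56.5 to 98.0). The interval holds the 67.4% of the whole list, 4 of the 9 regions stood at Gpam, and the difference from the other roles was not tested. All were under an absolute score of 100. Gpam (chr19:55067635-55127319, 59.7 kb) had 4 negative regions, scoring -79.4 (chr19:55092128-55092252, 125 bp), -42.2, -30.2 and -24.1. Lpin2, a phosphatidic acid phosphatase gene, had 2 negative regions (-34.7 and -21.7) and 1 positive (30.6). The positive one led per bp, and the region of -21.7 lay nearer to Emilin2. With Pck1 this makes 3 members. Agpat2, Dgat1, Dgat2, Gpd1 and Lpin3 had none within 5 kb. The nearest region lay 92.29 kb from Agpat2, 67.77 kb from Dgat2 and 54.99 kb from Gpd1, and 36.21 kb from Dgat1 and 9.97 kb from Lpin3.

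Of the secreted products of the fat cell, Lep, which encodes leptin, had a single negative region of 68 bp (chr6:29065540-29065607, score -23.1). Retn (resistin) and Cfd (adipsin) had none within 5 kb, with the nearest 48.22 and 27.6 kb away. Over the whole set 20 members had no region, and for 7 of them (Plin4, Plin5, Slc27a1, Agpat2, Dgat2, Gpd1 and Abhd5) there was none within 50 kb either.

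**Figure D3:**
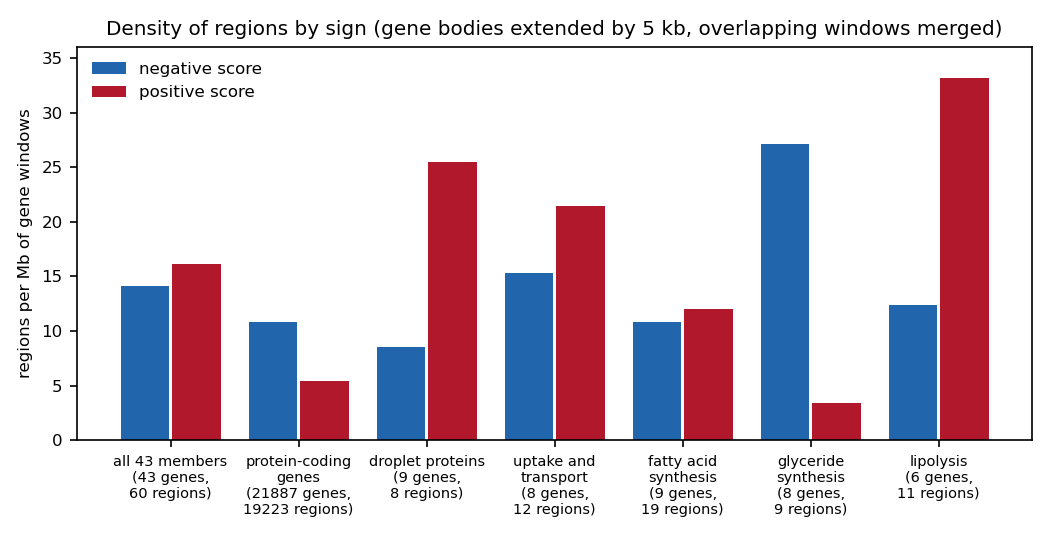
Bars give regions per Mb of gene windows (bodies extended by 5 kb, overlaps merged), negative and positive apart, for all members, all protein-coding genes and 5 roles. Members held 16.1 positive regions per Mb against 5.43 for all protein-coding genes, and 14.1 negative regions against 10.8; the glyceride synthesis genes had 27.1 negative and 3.39 positive, from 9 regions.

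Per length of window, the members differed from all protein-coding genes more in positive than in negative regions. The merged windows covered 1.98 Mb and held 30.3 regions per Mb, against 16.3. Lipolysis genes had the most positive regions per Mb (33.2) and droplet genes the next most (25.5), each on few genes and, in the main, on Mgll and Cavin1. In the flanks from 5 to 50 kb the sign was near that of the list, with 59 of 80 regions negative (73.8%, 63.2 to 82.1).

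The share of negative regions was also counted by size of score. The classes hold few regions, their intervals overlap, and the difference between them was not tested. Members' regions scoring from 50 to 100 in absolute terms were positive in 14 of 19 cases, or 26.3% negative (11.8 to 48.8), against 67.7% of such regions in the whole list. Of those at 100 or more 6 of 9 were negative (66.7%, 35.4 to 87.9), against 67.2%, and of those under 50 17 of 32 (53.1%, 36.4 to 69.1), also against 67.2%. A region of 100 or more was found at 7 members (Plin3, Cav1, Cavin1, Acly, Elovl6, Lipe and Mgll), or 16.3% of the 43, against 10.8% of protein-coding genes. It was negative at 4 of them (7.78% of protein-coding genes) and positive at 3 (4.21%). Among the 60 regions 15.0% reached that score, and 15.5% did in the whole list. The median absolute score was 45.4 at the members and 49.4 in the list, and the median width 100 and 112 bp.

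**Figure D4:**
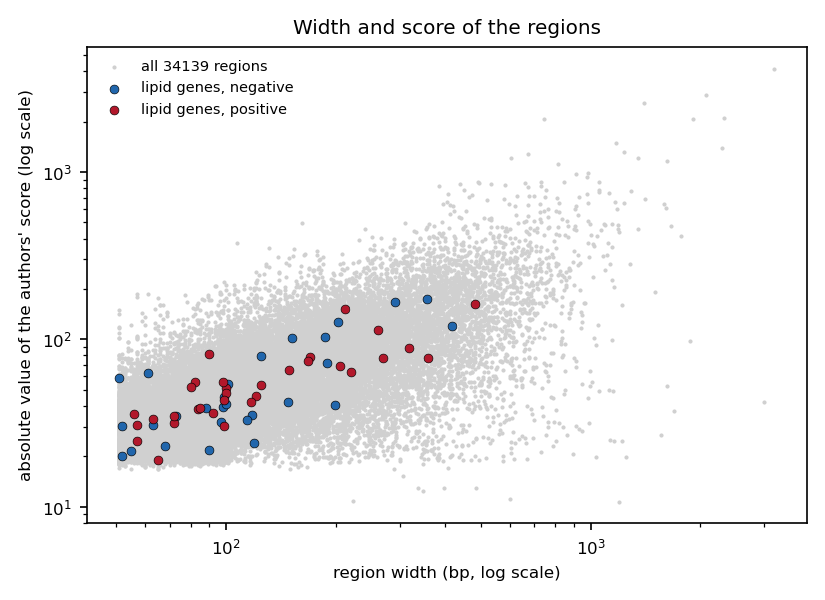
Grey points are all 34139 regions and coloured points the 60 at the lipid genes, by width (bp, log scale) and absolute score (log scale). The 60 lie inside the cloud, between 51 and 481 bp wide, and none exceeds an absolute score of 175.

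Scores rose with width, with a Spearman rho of 0.76 over the 60 regions and 0.65 over the list. This is a description over regions of the same 2 libraries. A larger score need not mean a larger difference in methylation, and the median absolute score per bp was 0.438 at the members and 0.43 in the list.

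Gene length went with the number of regions. Every member of 50 kb or more had a region, 4 of 4 from 50 to 100 kb (60.7% of protein-coding genes) and 6 of 6 of 100 kb or more (86.2%). Among members of 10 to 20 kb, 8 of 14 had a region (57.1%, against 26.4%), and among those under 10 kb, 3 of 11 (27.3%, against 13.9%). From 20 to 50 kb the order was the other way, with 2 of 8 (against 37.8%). Across the 43 genes the Spearman rho between length and number of regions was 0.55, and across all protein-coding genes 0.52. A total of 10 members had 3 or more regions, against 10.6% of protein-coding genes. Beside the values given for Cavin1, Fabp4, Mgll, Lipe and Elovl6, the share of genes of like length with as many regions or more was 7.14% for Gpam, 16.2% for Acsl1, 16.5% for Me1, 16.6% for Lpin2 and 35.9% for Cd36. Of the 43 members, 5 had a region at a gene end (2 kb outside to 500 bp inside), against 6.77%.

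**Figure D5:**
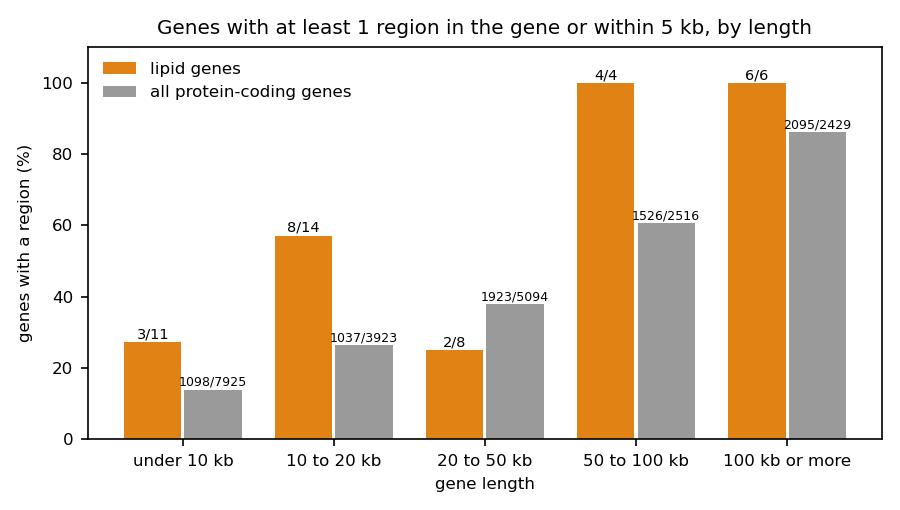
Bars give the share of genes (%) that carry a region, counting 5 kb on either side, by gene length, for the 43 lipid genes and for all protein-coding genes, with the counts above. The lipid genes stand higher in 4 of the 5 classes and lower from 20 to 50 kb (2 of 8 against 37.8%).

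A further 64 genes of the same pathways gave 29 with a region (45.3%, against 35.1%) and 44 regions, 24 of them negative (54.5%, 40.1 to 68.3). That interval holds the 67.4% of the whole list. A region of an absolute score of 100 or more, found at 10.8% of protein-coding genes, stood at 5 of the 64 genes. They were Agpat4, a lysophosphatidic acid acyltransferase gene (-280 over 295 bp at chr17:12169310-12169604), Plpp1, a lipid phosphate phosphatase gene (-228 over 345 bp), Cavin2 (226 over 266 bp), Gpat4, a relative of Gpam (-221 over 499 bp, outside the gene), and Scap, the escort of the SREBP factors (-150 over 325 bp).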

How the data were processed

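Whole-genome bisulfite libraries of 2 groups (1 library each) were compared through a list of differentially methylated regions that the authors deposited. Its last column is a signed score per region, made by the authors, and its unit and sign are not defined in the file. Per the submitters' processing notes, positions are on mm10. The aligner, caller, thresholds and coverage were not given in the sources used here, so the depth per library is unknown, the precision of a score cannot be stated, and regions that differ little or are poorly covered would be missing.

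From the list, overlaps with gene bodies extended by 5 kb were counted (Python 3.11.15, pandas 2.3.3; shares with scipy 1.17.1). Positions count from 1, taking the list as BED. RefSeq GRCm38.p6 gave gene spans without exons, so exons, introns and UTRs could not be told apart; strand and starts came from the RefSeq start windows, which held 34 of the 43 members. Lpl, Angptl4, Fabp4, Fabp5, Scd1, Scd2, Dgat1, Dgat2 and Gpd1 had none matched. The overlap counting was tested on simulated regions. Members, roles and lists were chosen with earlier results of these data known. Every member is accounted for. The score of each region is given for members with a region at a gene end, an absolute score of 50 or more, or 3 or more regions. Position and width are given for only some of these regions. Of the further list the 5 genes with the largest absolute score are named. Other windows, score and width minimums and nearest-gene assignment were tried.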

Additional observations from a re-analysis of the deposited data

How the results depend on the processing

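The number of members with a region was within 1.5 times of 23 under 6 of 8 other settings. It was 36 with 50 kb on both sides (68.5% of protein-coding genes) and 5 at gene ends only (6.77%). The negative share of 46.7% stayed inside its own interval (34.6 to 59.1) under 6 of 7 planned settings and was 62.1% with 50 kb on both sides; it was 60.0% without Mgll, Cavin1 and Fabp4, which was chosen after seeing the data. The 7 members with a region of absolute score 100 or more became 16 at a minimum of 50 (23.6% of protein-coding genes) and 17 with 50 kb on both sides (24.8%). Ranking by score per bp kept the strongest region of 17 of 23 members. It turned the sign at Lpin2 (30.6) and Lipe (-53.9) and changed the region but not the sign at Cavin1 (81.4), Acacb (34.55), Elovl6 (-168) and Pck1 (-38.6). In the further list of 64 genes 55 had a region with 50 kb on both sides (68.5% of protein-coding genes). With the gene body only, 21 had one (28.9% of protein-coding genes). Both settings were added after seeing the data. The negative share of each role stayed inside its wide interval under both windows tried, but with 50 kb on both sides it went from 27.3% to 50% for lipolysis and from 25% to 41.2% for droplet genes. No paired analysis was possible because each group has 1 library. Coverage is unknown, so no coverage minimum was tried.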

Other observations

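The genes of caveolae, the membrane pits in which fat cells take up lipid, differed in the sign of their regions. The 5 genes described were singled out after their values were seen, and other members of these families were not examined. Cavin1, Cavin2 and Cavin3 had positive regions only, 4 at Cavin1, 1 inside Cavin2 (score 226) and 1 beside Cavin3 (90 bp, score 81.9). Cav1 and Cav2 had negative regions only, as most of the list did (67.4%), 1 at Cav1 (score -120) and 2 at the adjacent Cav2, the stronger of which scored -50.2 over 198 bp. The number of regions is small, and the difference was not tested.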
